A study of Mus musculus with 3 samples.

Results

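The genes of the histone proteins were described in mouse granulosa cells before and after an ovulatory signal, in maps of H3K4me3, the trimethylated lysine 4 of histone H3, which is found at the promoters of active genes. Members were protein-coding genes whose symbol begins with Hist1h, Hist2h, Hist3h or Hist4h, or with H1f, H2ac, H2bc, H2az, H3c, H3f or H4c in the newer naming. Of 21887 protein-coding genes, 77 were members, 73 by their current symbol and 4 (H4f16, H2bu2, H2aw and H4bc24) by an older Hist symbol. H4bc24 is placed with the H2B genes here because its older symbol is an H2B name. By class the members were 10 genes of linker histone H1, 20 of H2A, 18 of H2B, 16 of H3 and 13 of H4.

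All 3 groups were granulosa cells, the somatic cells around the oocyte, from wild type C57BL/6 female mice at post natal day 21-28. Every animal had received 4 IU of eCG, a gonadotropin that makes follicles grow. The 0 h group was taken before hCG, and the 4 h and 12 h groups were taken that long after 5 IU of hCG, which acts like the surge of luteinizing hormone. Cells were released by puncturing follicles, so other cells of the follicle may be present, and the number of mice per library is not stated in any source used here. Chromatin was immunoprecipitated with an antibody to H3K4me3 and sequenced, with 1 library per time. No difference between times below therefore has a replicate check or a test.

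Histones H2A, H2B, H3 and H4 form the core particle that DNA wraps around, and H1 binds the linker between particles. Most of their genes are replication-dependent: short, without introns, packed in clusters and transcribed mainly while DNA is copied. Replacement genes, such as those of H3.3 and H2A.Z, stand alone, are active throughout the cell cycle and supply histones outside replication. Granulosa cells of growing follicles divide, and they leave the cell cycle as they luteinize after the ovulatory surge.

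The 54 members on chromosome 13 lay in 2 clusters of the mm10 build. The first, at chr13:21715711-22043658, held 23 genes (1 of H1, 7 of H2A, 8 of H2B, 2 of H3 and 5 of H4). The second, at chr13:23531044-23934913, held 31 genes (5 of H1, 6 of H2A, 7 of H2B, 7 of H3 and 6 of H4). A chromosome 3 cluster at chr3:96219885-96270192 held 10 genes (4 of H2A, 2 of H2B, 3 of H3 and 1 of H4). On chromosome 11 the genes H2bu2, H2aw and H3f4 lay at chr11:58948911-58962273, and 10 members stood alone.

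On chromosome 13, 10 pairs of neighbouring genes for H2A and H2B faced away from each other, with 163 to 280 bp between their annotated starts. The sequences between the starts are shown for 5 of these pairs, which differed in when they had a peak, followed by the 250 bp before the start of H2az1, the 1 histone gene called broader at 4 h over 0 h below. They are RefSeq sequences of GRCm38.p6 on the plus strand, and the first 5 read from the start of the left gene to that of the right gene. The times given for a pair are those at which either of its genes had a peak. Capitals mark the CCAAT box (CCAAT or ATTGG), the TATA box (TATAAA or TTTATA), the letters of the H2B octamer (TTTGCAT or ATGCAAA) and the GC box (GGGCGG or CCGCCC).
H2ac12 and H2bc12, chr13:22035644-22035820, peak at all 3 times: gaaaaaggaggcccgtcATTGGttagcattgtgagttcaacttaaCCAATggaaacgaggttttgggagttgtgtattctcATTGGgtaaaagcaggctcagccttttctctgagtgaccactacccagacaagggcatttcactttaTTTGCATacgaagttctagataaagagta
H2ac15 and H2bc15, chr13:21753913-21754075, peak at 0 h and 4 h: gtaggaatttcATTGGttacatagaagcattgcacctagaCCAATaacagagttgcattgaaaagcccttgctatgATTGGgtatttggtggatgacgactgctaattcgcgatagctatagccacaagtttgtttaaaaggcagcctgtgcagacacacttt
H2ac8 and H2bc8, chr13:23571221-23571399, peak at 0 h and 4 h: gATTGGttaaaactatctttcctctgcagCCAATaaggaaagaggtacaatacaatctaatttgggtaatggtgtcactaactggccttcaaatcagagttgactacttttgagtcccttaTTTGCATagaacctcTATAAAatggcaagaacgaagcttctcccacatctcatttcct
H2bc7 and H2ac7, chr13:23574208-23574380, peak at 0 h alone: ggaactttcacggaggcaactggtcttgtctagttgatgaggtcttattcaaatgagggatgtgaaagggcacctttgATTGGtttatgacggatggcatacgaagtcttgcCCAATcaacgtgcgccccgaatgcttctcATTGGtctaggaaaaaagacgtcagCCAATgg
H2ac22 and H2bc22, chr13:21787249-21787487, peak at no time: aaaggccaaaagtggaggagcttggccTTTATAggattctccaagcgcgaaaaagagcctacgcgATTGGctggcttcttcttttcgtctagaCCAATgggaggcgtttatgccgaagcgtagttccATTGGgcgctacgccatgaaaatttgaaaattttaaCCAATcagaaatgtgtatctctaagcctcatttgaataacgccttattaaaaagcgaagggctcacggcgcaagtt
H2az1, chr3:137864237-137864486, peak at all 3 times: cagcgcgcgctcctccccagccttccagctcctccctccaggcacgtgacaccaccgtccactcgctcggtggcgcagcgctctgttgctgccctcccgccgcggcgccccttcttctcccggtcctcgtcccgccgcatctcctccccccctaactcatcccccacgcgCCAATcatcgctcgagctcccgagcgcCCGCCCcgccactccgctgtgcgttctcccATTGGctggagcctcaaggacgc

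Each of these 6 stretches held at least 2 CCAAT boxes, whatever its pattern of peaks. The octamer letters were present between H2ac12 and H2bc12 and between H2ac8 and H2bc8. Only the H2az1 stretch held a GC box, and it had 28 CpG dinucleotides, against 1 to 14 in the 5 pair sequences.

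Promoters of 300 bp (250 before to 50 after the start) were found for 72 members, and motifs were counted on both strands beside 32851 promoters in the RefSeq table. Members had 1 promoter each, while that set was used whole, without a limit to protein-coding genes or to 1 promoter per gene. CCAAT was present in 81.9% of the histone promoters and 37.4% of all promoters, and 49 histone promoters held it 2 or more times. TATAAA was present in 51.4% and 13.6%, TTTGCAT in 20.8% and 4.63%, and GGGCGG in 38.9% and 35.7%. By class, CCAAT was found in 20 of 20 H2A promoters, 16 of 16 H2B promoters, 13 of 14 H3 promoters, 7 of 10 H1 promoters and 3 of 12 H4 promoters. The H4 promoters held the GC box in 9 of 12 cases, against 1 of 16 for H2B. A match of letters is a description and not a bound site.

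The lists held 22236, 23662 and 20669 peaks at 0 h, 4 h and 12 h on the chromosomes used, and covered 8.87, 10.1 and 8.93 Mb. They give peak positions alone, without height or depth, so the depth of each library is unknown and breadth is the only size measured. The narrowest peaks had 136, 139 and 152 bp. A nolambda tag is part of the peak names at 0 h and 4 h and missing from them at 12 h, and the 12 h library ran in another lane, so time, lane and any difference in peak calling cannot be told apart. Of 10 granulosa cell markers, 7, 9 and 7 had a peak at 0 h, 4 h and 12 h, with 8715, 6236 and 2726 covered bp in sum, and the hormone gene Amh was at 0. Of 10 oocyte markers, Gdf9 alone had a peak (810, 1127 and 530 bp), and 9, including Zp3 and Ddx4, were at 0. Leukocyte markers had a peak at 0, 1 and 0 of 6 genes with at most 139 bp in sum, endothelial markers at 0, 1 and 1 of 5 with at most 347 bp, and stromal markers at 0, 1 and 1 of 5 with at most 192 bp. Of 4 theca markers, 2 had a peak at each time (1767, 2459 and 2419 bp in sum), while the defining genes Cyp17a1 and Insl3 were at 0. The part of these markers in the results on histone genes was not tested.

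Most histone genes carried H3K4me3, and fewer of them did at 12 h. A gene has a peak here when at least 1 bp of a peak lies in the gene or within 1 kb of it. A peak was present at 60 of 77 histone genes at 0 h (77.9%, 95% Clopper-Pearson interval 67.0 to 86.6), 58 at 4 h (75.3%, 64.2 to 84.4) and 49 at 12 h (63.6%, 51.9 to 74.3). The shares of all protein-coding genes were 53.0% at 0 h, 54.9% at 4 h and 52.8% at 12 h. The intervals cover counting error alone, and neighbouring histone genes can share a peak. Most members are short, and 49, 47 and 38 of the 62 histone genes of 1 kb or less had a peak. Among the other 1515 protein-coding genes of that length, 2.51% had one at 0 h, 2.84% at 4 h and 2.51% at 12 h. Among genes no longer than the longest clustered member the shares were 46.6%, 47.9% and 46.4%.

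A peak at all 3 times was found at 46 histone genes (59.7%, against 49.5% of all genes) and at no time at 13 (16.9%, against 42.4%). A peak at 0 h and 4 h but not at 12 h was found at 8 (10.4%, against 1.90%). A further 3 had a peak at 0 h alone (3.90%, against 0.973%), 4 at 4 h alone (5.19%, against 1.85%) and 3 at 0 h and 12 h (3.90%, against 0.631%). None had a peak at 12 h alone (interval up to 4.68%, against 1.01%) or at 4 h and 12 h alone (up to 4.68%, against 1.66%), and both intervals take in the share of all genes. The intervals for a peak at all 3 times, at 0 h alone and at 4 h alone take it in as well.

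**Figure D1:**
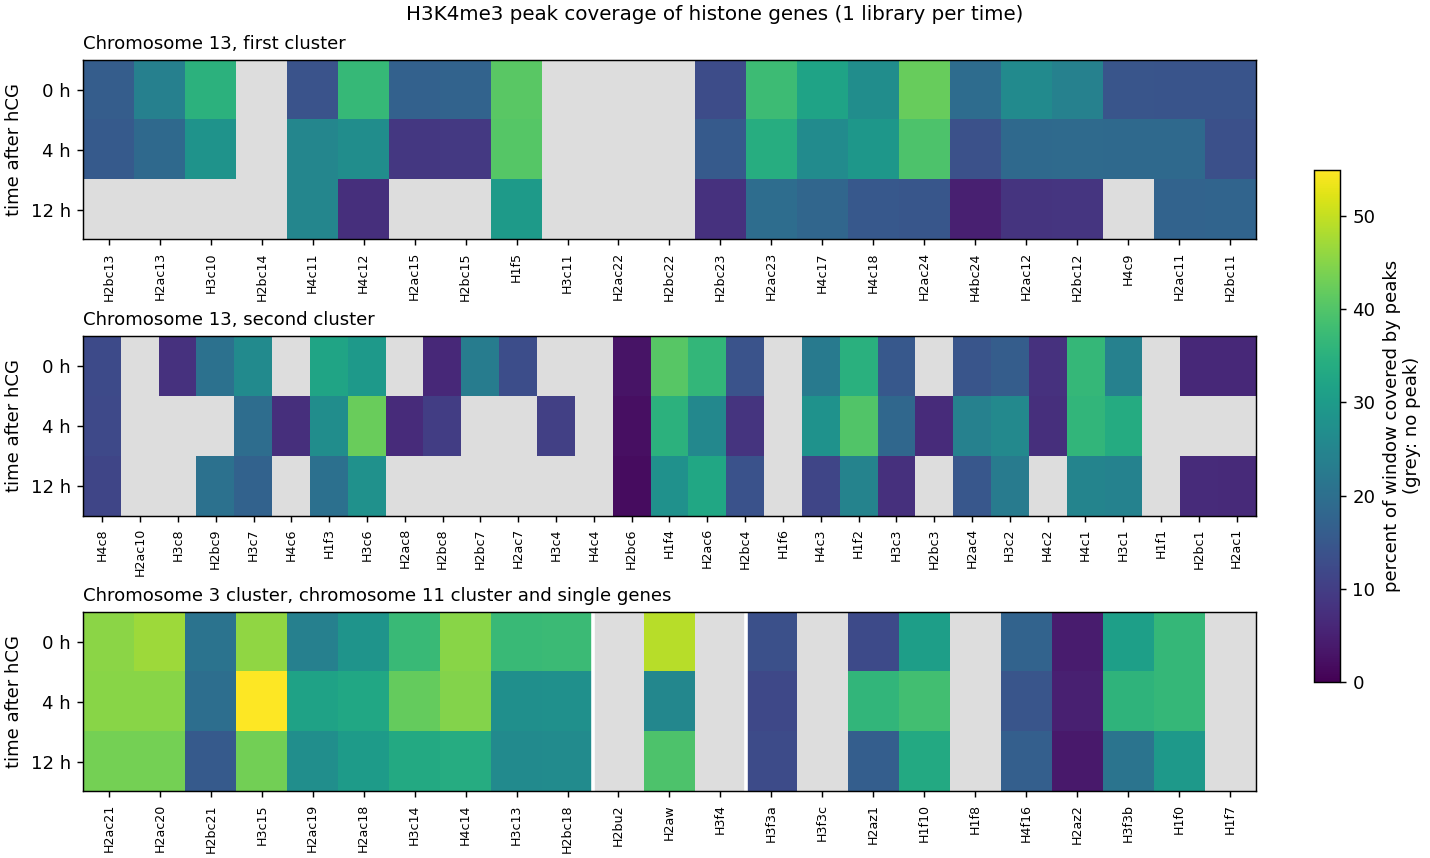
Percent of each histone gene's window (the gene and 1 kb on each side) covered by peaks at 0 h, 4 h and 12 h, with genes in chromosomal order along the x axis and grey cells for no peak; white lines part the chromosome 3 cluster, the chromosome 11 cluster and the single genes. The 10 genes of chromosome 3 had a peak at every time, and the grey cells of the 12 h rows lie mostly on chromosome 13.

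The lower number at 12 h came from chromosome 13. A gene is said below to have lost its peak when it had one at the earlier time and none at the later, and to have gained one in the reverse case. At 12 h, 12 of the 58 histone genes with a peak at 4 h had lost it (20.7%, 11.2 to 33.4), against 6.83% of all genes. All 12 lay on chromosome 13, where 40 genes had a peak at 4 h. The 10 genes of chromosome 3 each had at least 686 covered bp at 4 h, and none of them lost a peak. Against 0 h, 11 of 60 had lost it at 12 h (18.3%, 9.52 to 30.4; all genes 5.42%), and at 4 h against 0 h 6 of 60 had (10%, 3.76 to 20.5; all genes 3.02%). The 3 comparisons share libraries, so they are not independent. Gains were 4 of 17 at 4 h over 0 h (23.5%; all genes 7.47%), 3 of 19 at 12 h over 4 h (15.8%; all genes 3.64%) and 0 of 17 at 12 h over 0 h (interval up to 19.5%; all genes 5.68%). The intervals for gains all take in the share of all genes.

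Small peaks are lost more often, and many histone genes had little covered sequence. Among genes with 1 to 500 covered bp at the earlier time, 11 of 18 histone genes lost the peak at 12 h over 4 h (61.1%, 35.7 to 82.7; all genes 28.4%). At 12 h over 0 h these were 8 of 18 (44.4%, 21.5 to 69.2; all genes 20.7%), and at 4 h over 0 h 4 of 18 (22.2%, 6.41 to 47.6; all genes 12.1%). With overlapping windows merged, so that a shared peak counts once, 5 of 36 histone windows lost their peak at 12 h over 4 h (13.9%, 4.67 to 29.5; all merged windows 6.48%). At 12 h over 0 h these were 5 of 37 (13.5%, 4.54 to 28.8; all 4.91%), and at 4 h over 0 h 2 of 37 (5.41%, 0.661 to 18.2; all 2.77%). All 3 of these intervals take in the share of all windows, so by merged windows the higher losses did not exceed counting error. A merged window counts as lost only when every peak in it is gone. A peak lost beside a kept one, as at H4c9, is therefore left out, and separate peaks in 1 window count once.

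**Figure D2:**
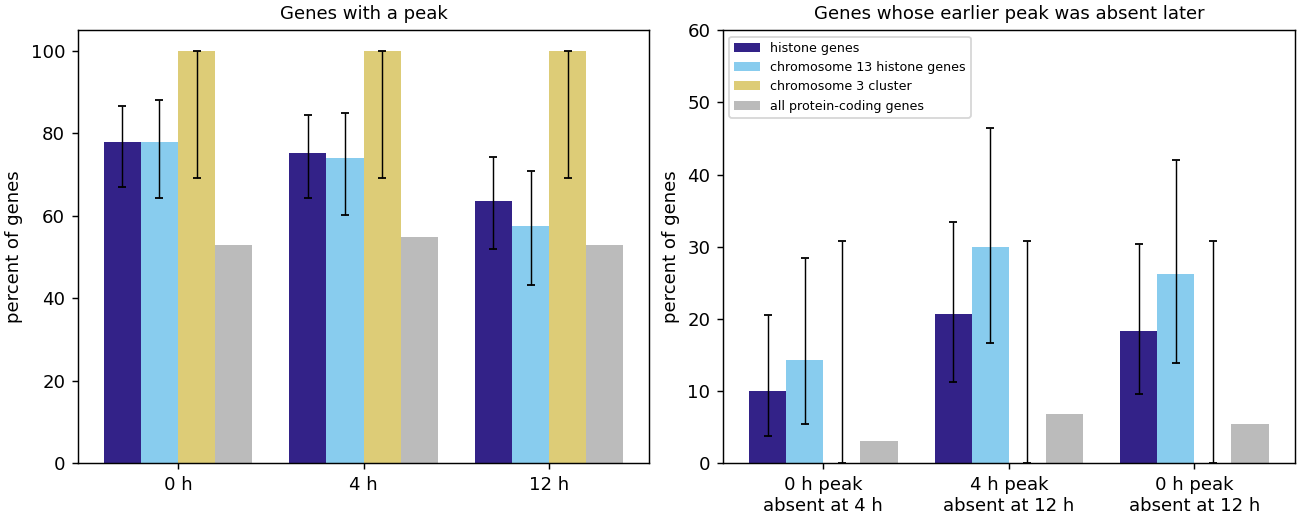
Left, percent of genes with a peak at each time; right, percent of genes with a peak at the earlier time that had none at the later. Bars give all histone genes, those of chromosome 13, those of chromosome 3 and all protein-coding genes, and error bars are 95% Clopper-Pearson intervals for counting error alone. The chromosome 13 genes reached 57.4% with a peak at 12 h, while the chromosome 3 genes stayed at 10 of 10.

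Covered sequence was close to equal at 0 h and 4 h and lower at 12 h. The merged windows of the 77 genes held 32302 bp of peaks at 0 h, 32314 bp at 4 h and 23876 bp at 12 h. The 12 h value was 73.9% of that at 4 h for histone genes and 88.9% for all genes, and 73.9% and 100.7% of that at 0 h. On chromosome 13 the covered sequence was 17702, 16705 and 11138 bp at 0 h, 4 h and 12 h, on chromosome 3 it was 5454, 5601 and 4648 bp, and at the single genes 7917, 9372 and 7095 bp. In a bulk sample, fewer cells with a mark and less of the mark per cell cannot be told apart.

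Breadth is given below as the log2 ratio of covered bp, later over earlier time, in genes with a peak at both, minus the median of all such genes. That median was 0.11 at 4 h over 0 h, -0.13 at 12 h over 4 h and -0.01 at 12 h over 0 h. A gene is called broader at 1 or more and narrower at -1 or less. Narrower histone genes were 8 of 46 at 12 h over 4 h (17.4%, 7.82 to 31.4; all genes 4.81%), 5 of 49 at 12 h over 0 h (10.2%, 3.40 to 22.2; all genes 5.16%) and 3 of 54 at 4 h over 0 h (5.56%, 1.16 to 15.4; all genes 3.87%). The intervals at 12 h over 0 h and at 4 h over 0 h take in the share of all genes. Without centring, the count at 4 h over 0 h was 0. At 12 h over 4 h the count was 3 with peaks inside the genes alone and 3 without the narrowest 25% of peaks in each list. H2az1 was the 1 histone gene called broader at 4 h over 0 h (1 of 54; all genes 5.53%), and none of 46 was at 12 h over 4 h (all genes 3.41%) or of 49 at 12 h over 0 h (all genes 5.65%).

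The first chromosome 13 cluster held 5 of the 8 narrower genes at 12 h over 4 h and all 5 at 12 h over 0 h. Its median centred ratio was -0.25 at 4 h over 0 h, -0.80 at 12 h over 4 h and -0.81 at 12 h over 0 h. The medians of the second cluster were -0.13, -0.28 and -0.11, and those of chromosome 3 were -0.13, -0.03 and -0.12. By class over all members, the medians at 12 h over 4 h were -0.24 for H1, -0.08 for H2A, -0.21 for H2B, -0.21 for H3 and -0.40 for H4.

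**Figure D3:**
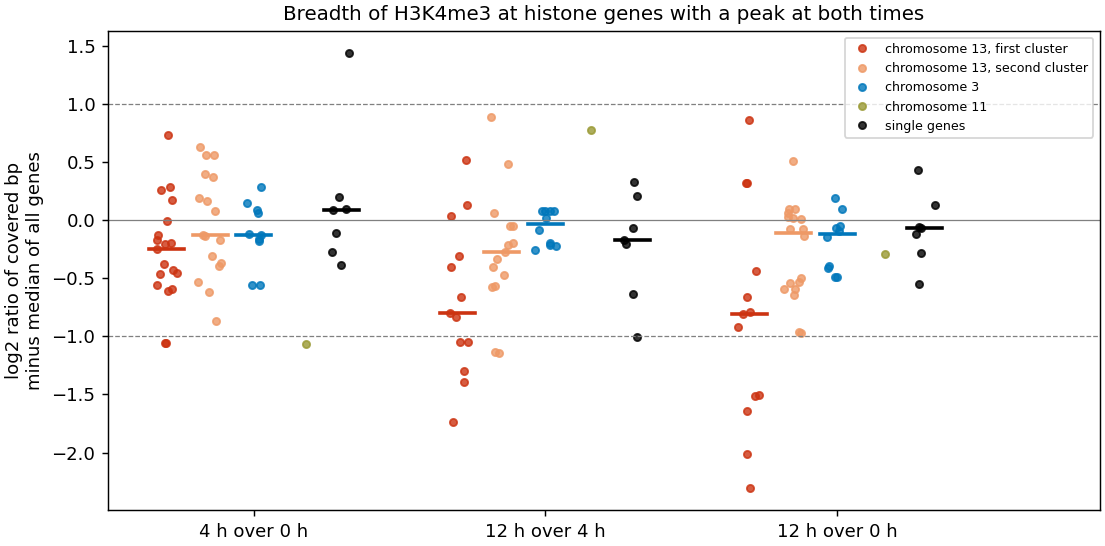
Centred log2 ratio of covered bp (y axis) for histone genes with a peak at both times, in 3 comparisons (x axis); each point is a gene, coloured by cluster, bars are medians of groups with more than 1 gene and dashed lines mark 1 and -1. The first chromosome 13 cluster has its medians at -0.80 and -0.81 in the comparisons of 12 h.

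The linker histone genes on chromosome 13 kept their peaks. H1f2, H1f3, H1f4 and H1f5, which encode somatic H1 proteins, had a peak at all times. H1f5 (chr13:21779832-21780625) had 1144, 1134 and 836 covered bp at 0 h, 4 h and 12 h, and H1f4 had 1132, 986 and 776 bp. H1f3 had 894, 750 and 565 bp, and H1f2 had 954, 1093 and 670 bp. In each of the 4 the 12 h value was the lowest, with centred ratios of -0.57 to -0.21 at 12 h over 4 h, none past the threshold. H1f6, the testis-specific H1t, and H1f1 had no peak at any time.

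At 12 h over 4 h, 3 of 16 H2A genes and 4 of 12 H2B genes with a peak lost it, against 12 of 58 over all classes and 6.83% of all genes. Each of the 3 H2A genes is the divergent partner of an H2B gene that also lost its peak. Each such pair shared a peak at 4 h, so the 2 classes are not separate results. H2bc13 and H2ac13, a divergent pair at the edge of the first cluster, had peaks at 0 h (402 and 589 bp) and at 4 h (387 and 462 bp). Neither had a peak at 12 h. The peaks of H2bc13 are also peaks of H2ac13 and of H3c10, so the losses of these genes are not independent. H2ac15 and H2bc15, whose shared upstream sequence is shown above, each had 434 bp at 0 h, 226 bp at 4 h and 0 at 12 h. This is a single set of peaks in overlapping windows, and the ratio at 4 h over 0 h was -1.05 for both (-0.35 without narrow peaks).

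H2ac24 and H4bc24 kept peaks that were narrower at 12 h. H2ac24 had 1036, 972 and 360 bp at 0 h, 4 h and 12 h, with a centred ratio of -1.30 at 12 h over 4 h and -1.51 at 12 h over 0 h. H4bc24 had 1125, 795 and 276 bp, with ratios of -1.39 and -2.01, but at 12 h over 4 h the ratio was 0.082 inside the gene alone and -0.74 with 500 bp on each side. With 2.5 kb on each side it was -0.83 for both genes. Their windows overlap. H2ac12 had 662, 476 and 210 bp and H2bc12 603, 476 and 210 bp, so the 4 h and 12 h values are those of the same peaks. Both had a ratio of -1.05 at 12 h over 4 h, and H2ac12 had -1.64 and H2bc12 -1.51 at 12 h over 0 h. For H2bc12 these were -0.29 and -0.45 inside the gene alone and -0.37 and -0.43 with 500 bp on each side, so its calls depend on the window.

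Other pairs of the first cluster differed from these. H2bc23 had 737, 899 and 460 bp at 0 h, 4 h and 12 h, and H2ac23 had 960, 872 and 503 bp, with ratios of -0.83 and -0.66 at 12 h over 4 h. At H2ac11 the values were 353, 466 and 435 bp and at H2bc11 353, 333 and 435 bp, so this pair was not smaller at 12 h than at 0 h. H2bc14 and the pair H2ac22 and H2bc22 had no peak at any time. Promoters of H2bc23 and H4bc24 were identical over 300 bp, so reads from such copies cannot be assigned with certainty, and the values of near-identical histone genes, no peak included, are uncertain to that extent.

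In the second cluster, small peaks came and went. H2bc7 had 564 bp at 0 h and its divergent partner H2ac7 328 bp, and neither had a peak at 4 h or 12 h. The peaks of H2ac7, of 174 and 154 bp, are also peaks of H2bc7. H2bc9 had 519 bp at 0 h, none at 4 h and 520 bp at 12 h. H2bc8 had 154, 245 and 0 bp at 0 h, 4 h and 12 h, and its partner H2ac8 172 bp at 4 h alone. H2bc3 had 168 bp at 4 h alone, and H2ac10 had no peak. H2bc1 and H2ac1, the testis histone pair TH2B and TH2A, shared 155 bp at 0 h and 164 bp at 12 h and had no peak at 4 h. The values of H2bc8, H2ac8, H2bc3, H2bc1 and H2ac1 rest on 1 peak per time, 155 to 286 bp wide. At 0 h 154 bp of the H2bc8 peak lay inside the window, past the end of the gene. That peak, 286 bp wide, is also a peak of H2bc7. At 4 h H2ac8 and H2bc8 shared a different peak, of 245 bp.

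Other genes of the second cluster had a peak at all times. H2ac6 had 907, 639 and 817 bp at 0 h, 4 h and 12 h, H2ac4 363, 607 and 375 bp, and H2bc4 1436, 849 and 1432 bp. For H2bc4 the 4 h value was the lowest, with ratios of -0.87 at 4 h over 0 h and 0.89 at 12 h over 4 h. Peaks in the window of H2ac6 also lie in that of H2bc4. H2bc6 had 1129, 931 and 743 bp, but its annotation spans 37455 bp and its window takes in the H1f4 peak.

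At 0 h, 4 h and 12 h none of the 10 divergent pairs had a covered base between its starts. The peaks of these pairs lay outside the stretches shown above. Of the 10 pairs, 4 had a peak at all times, 3 at 0 h and 4 h, 1 at 0 h alone, 1 at 0 h and 12 h and 1 at no time.

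**Figure D4:**
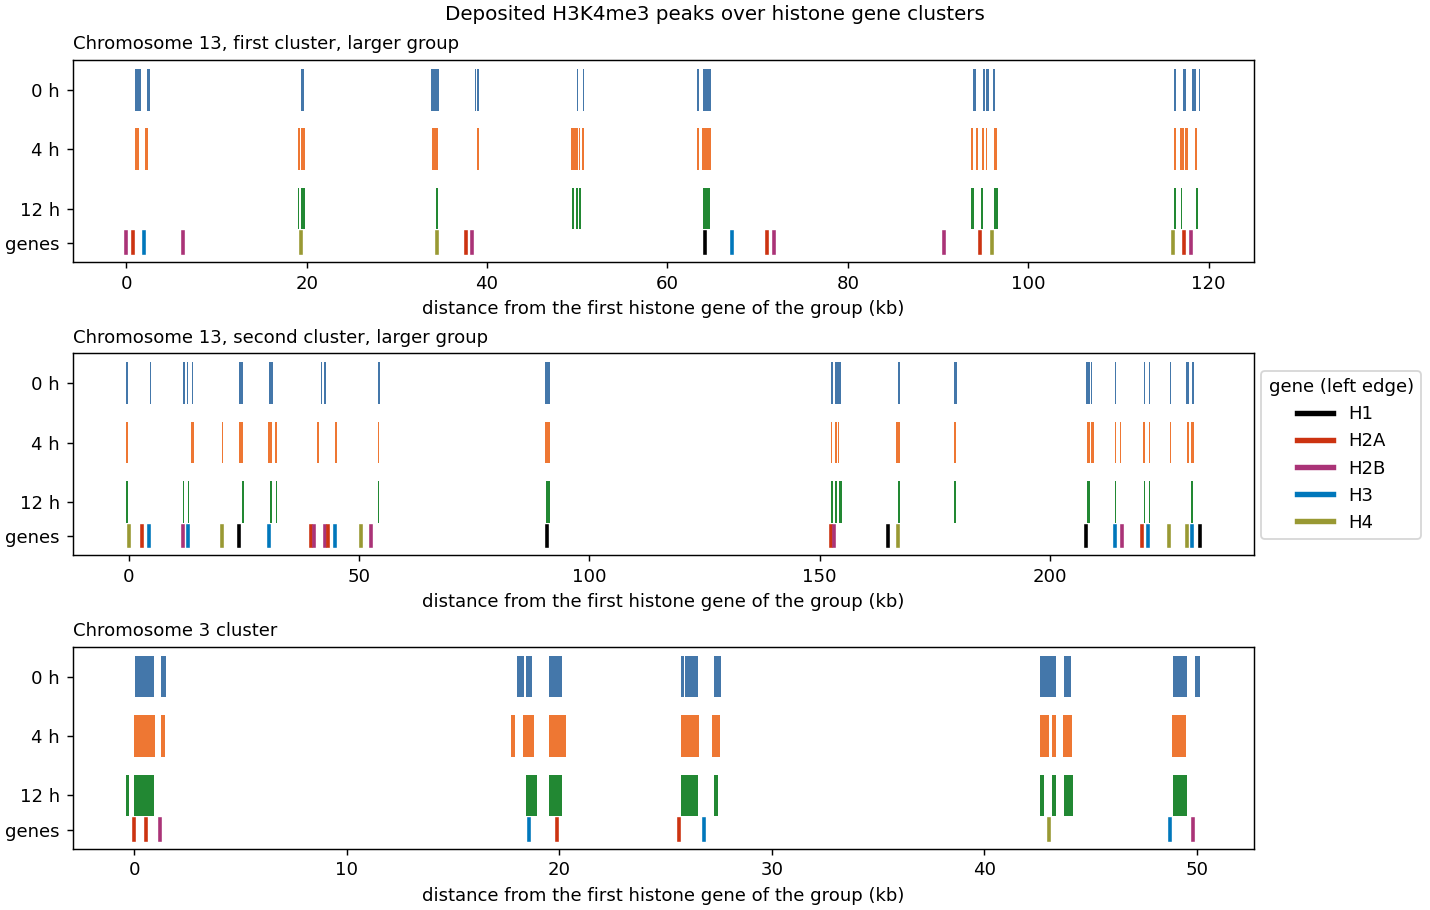
Positions of deposited peaks at 0 h, 4 h and 12 h over the larger group of each chromosome 13 cluster and over the chromosome 3 cluster, to scale in kb from the first histone gene; ticks mark the left edge of each histone gene, coloured by class. Most peaks sit on or beside the genes. The first chromosome 13 group has 18, 17 and 10 peaks in its histone windows at 0 h, 4 h and 12 h. A further 2, 3 and 3 peaks lie outside those windows.

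Among H3 genes of chromosome 13, H3c10 (chr13:21717628-21718115) had the most covered sequence of those that lost a peak. It had 880 bp at 0 h, 705 bp at 4 h and no peak at 12 h. Its peaks at 0 h were of 175, 414 and 291 bp on both sides of the start, and those of 175 and 414 bp, before the start, are also the peaks of the neighbour H2ac13. H3c8 had 197 bp at 0 h alone and H3c4 259 bp at 4 h alone, and H3c11 had no peak.

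The other H3 genes there kept peaks. H3c6 had 864, 1233 and 810 bp at 0 h, 4 h and 12 h, H3c1 604, 845 and 611 bp, and H3c2 405, 645 and 569 bp. H3c3 had 377, 456 and 190 bp, a ratio of -1.13 at 12 h over 4 h, which was -0.49 inside the gene alone and -0.48 with 500 bp on each side. H3c7 had 765, 571 and 503 bp. In H3c6, H3c1, H3c2 and H3c3 the 4 h value was the highest, but for all except H3c6 this involved peaks shared with a neighbour. The 4 h value of H3c3 takes in a 168 bp peak that is also the peak of H2bc3. The peak over H3c3 itself narrowed with time, measuring 377, 288 and 190 bp. The peaks of H3c1 are also those of H4c1, where the 0 h value was the highest, so this order depends on the window. The peaks of H3c2 are also those of H2ac4.

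Among H4 genes, H4c12 (chr13:21750145-21750553) had the largest narrowing of any histone gene. It had 890 bp at 0 h, 652 bp at 4 h and 178 bp at 12 h. Its centred ratios were -1.74 at 12 h over 4 h and -2.31 at 12 h over 0 h. The 12 h value is 1 peak near the narrowest width of that library, so the ratio depends on that floor. With peaks inside the gene alone the ratio at 12 h over 4 h was -0.092, and with the narrowest 25% of peaks left out H4c12 had none at 12 h. H4c3 had 540, 665 and 274 bp and a ratio of -1.15 at 12 h over 4 h. That ratio was -0.014 inside the gene alone, -0.82 without narrow peaks and -0.85 when each list was reduced to its widest peaks in equal number. H4c9 had 349, 451 and 0 bp and H4c2 192, 184 and 0 bp. H4c6 had 177 bp at 4 h alone, and H4c4 had no peak.

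H4c11, close to H4c12 in the same cluster, had 340, 611 and 611 bp and a ratio of 0.86 at 12 h over 0 h. H4c17 had 767, 637 and 439 bp, H4c18 649, 699 and 367 bp, and H4c1 898, 887 and 611 bp. H4c8 had 300, 296 and 282 bp, from a peak before its start that lies inside the lncRNA gene Gm11335.

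The 10 clustered genes of chromosome 3 had a peak at every time and the densest coverage. Peaks covered 27.9%, 28.7% and 23.8% of their merged windows at 0 h, 4 h and 12 h, against 10.6%, 10% and 6.67% on chromosome 13. H3c15 (chr3:96238479-96239127) had 1216, 1455 and 1147 bp, which was 45.9%, 54.9% and 43.3% of its window. H2ac20 had 1157, 1116 and 1073 bp and its neighbour H2ac21 1121, 1116 and 1073 bp. H4c14 had 1080, 1066 and 814 bp. These 4 genes and H2aw had the highest summed percent of window among the members.

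The other genes of that cluster varied little. H3c14 had 995, 1120 and 890 bp at 0 h, 4 h and 12 h, H2bc21 974, 928 and 724 bp, H2ac18 728, 836 and 772 bp, and H2ac19 623, 820 and 706 bp. H3c13 and H2bc18, which share their peaks, each had 935, 686 and 660 bp. Centred ratios in this cluster ran from -0.56 to 0.28 over the 3 comparisons, so no gene passed the threshold.

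On chromosome 11, H2aw (chr11:58954685-58955192) had 1229 bp at 0 h, 636 bp at 4 h and 995 bp at 12 h. The ratio was -1.06 at 4 h over 0 h (-0.77 with peaks within 1 kb joined and -0.89 with 500 bp on each side) and 0.78 at 12 h over 4 h. The gene lies within the span of Trim17, so the peak cannot be given to H2aw alone. H2bu2 and H3f4 had no peak.

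Of the 10 single genes, 7 had a peak at all times and 3 at none. H3f3a and H3f3b both encode H3.3, the replacement form of H3. H3f3a had 1739, 1559 and 1647 bp at 0 h, 4 h and 12 h. H3f3b (chr11:116021961-116026039) had 1887, 2181 and 1280 bp, the highest values of any histone gene at 0 h and 4 h, with a ratio of -0.64 at 12 h over 4 h. H1f0, the linker histone of differentiated cells, had 1570, 1575 and 1276 bp, and H1f10 had 944, 1174 and 1025 bp. H4f16, an H4 gene, had 426, 352 and 404 bp.

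The H2A.Z genes differed from each other. H2az2 had 803, 924 and 732 bp, with no ratio past the threshold. H2az1 (chr3:137864487-137866922) had 548 bp at 0 h, 1607 bp at 4 h and 731 bp at 12 h. Its ratios were 1.44 at 4 h over 0 h and -1.004 at 12 h over 4 h. A peak after its start was present at each time, with 548, 576 and 532 bp, and the extra at 4 h came from 3 further peaks of 197, 419 and 415 bp farther down the gene and past its end. Within 1 kb of the annotated start the ratios were -0.042 at 4 h over 0 h and 0.10 at 12 h over 4 h. H1f8, the oocyte linker histone, H1f7, a linker histone of spermatids, and H3f3c had no peak at any time.

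Relative to the annotated start, peaks of histone genes lay on both sides, with more coverage downstream. Over 72 members the share of genes covered was highest 380 bp after the start at 0 h (52.8%) and 360 bp after it at 4 h and 12 h (45.8% and 41.7%). For 17492 genes the highest shares after the start were 34.5%, 36.4% and 34.9%. At the start itself 0%, 2.78% and 2.78% of histone genes were covered, against 3.93%, 5.28% and 4.58% of all genes. The highest shares before the start were 26.4%, 23.6% and 18.1% for histone genes and 11.7%, 12.0% and 10.7% for all genes, and in clusters this side takes in the neighbouring gene.

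**Figure D5:**
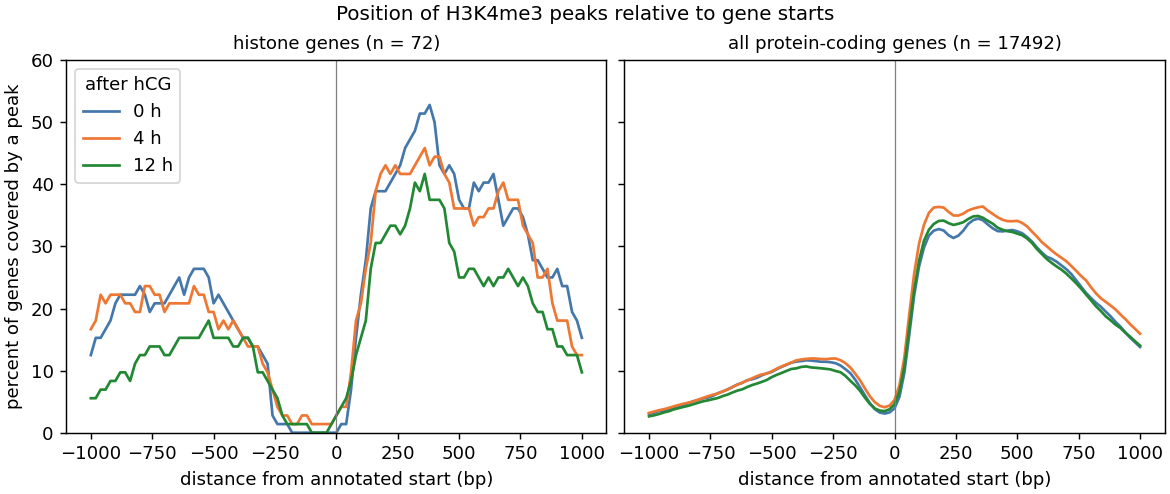
Percent of genes covered by a peak (y axis) by distance from the annotated start in bp (x axis), for 72 histone genes and 17492 protein-coding genes at 0 h, 4 h and 12 h. Both panels dip at the start, and the histone curves after the start are highest at 0 h (52.8%) and lowest at 12 h (41.7%).

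Single peaks were also followed between times. Of 78 peaks in histone windows at 4 h, 52 were overlapped by a peak at 12 h (66.7%, 55.1 to 76.9), against 74.3% of peaks at all genes. Of 76 at 0 h, 53 were overlapped at 12 h (69.7%, 58.1 to 79.8; all genes 76.8%) and 63 at 4 h (82.9%, 72.5 to 90.6; all genes 83.3%). Both intervals for 12 h take in the share of all genes. Of 49 peaks on chromosome 13 at 4 h, 29 were overlapped at 12 h (59.2%, 44.2 to 73.0). In the other direction, 57 of 64 histone peaks at 12 h were overlapped at 0 h (89.1%; all genes 80.0%) and 56 at 4 h (87.5%; all genes 85.3%).

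Promoter sequence was set beside these patterns among the clustered genes. The 34 with a peak at all times had a median of 13.5 CpG dinucleotides per 300 bp, the 8 with a peak at 0 h and 4 h had 7.5, and the 10 with no peak had 9.5. TATAAA was present in 16 of 34, 5 of 8 and 7 of 10, and CCAAT in 29 of 34, 6 of 8 and 10 of 10. In smaller groups, the median CpG was 15 for the 3 genes with a peak at 0 h alone. It was 8 for the 3 with a peak at 0 h and 12 h and 7.5 for the 4 with a peak at 4 h alone. Whether CpG goes with the pattern of peaks was not tested. All histone promoters had a median of 11.5 CpG and a GC content of 46.0%, against 7 and 52.7% in the whole RefSeq set of promoters.

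The genes that supply histones had nearly the same number with a peak at each time. Of 34 genes whose products transcribe, process, carry or load histones, 34, 33 and 33 had a peak at 0 h, 4 h and 12 h. The shares of all protein-coding genes were 53.0%, 54.9% and 52.8%. The median centred ratios were -0.08 at 4 h over 0 h, -0.04 at 12 h over 4 h and 0.01 at 12 h over 0 h. Npat, the coactivator of replication-dependent histone genes, had 1585, 1371 and 1349 bp at 0 h, 4 h and 12 h. Slbp, which binds the stem-loop at the end of histone mRNA, had 1101, 1113 and 712 bp.

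Calls and losses among these genes were no more frequent than over all genes. At 4 h over 0 h, 1 of 33 was broader (all genes 5.53%) and 1 of 33 narrower (all genes 3.87%). In the same comparison 1 of 34 lost its peak (all genes 3.02%). At 12 h over 0 h, 1 of 33 was broader (all genes 5.65%). Lsm11, a subunit of the U7 particle that cuts histone mRNA, had 729, 1724 and 1977 bp and was broader at 4 h over 0 h (1.13) and at 12 h over 0 h (1.45). Asf1b, a chaperone of H3 and H4, had 631, 326 and 466 bp and was narrower at 4 h over 0 h (-1.07). Chaf1a, the large subunit of the replication-coupled chaperone CAF-1, had 196 bp at 0 h and no peak later.

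A list of histone variants held 15 annotated genes, 6 of them members named above (H2az1, H2az2, H1f0, H1f10, H1f7 and H1f8). Of the 15, 9 had a peak at each time, against 49.5% of all genes. The other 6, including the testis genes H2al2a and Hils1, were at 0 throughout, against 42.4% of all genes. H2ax, the variant phosphorylated at DNA breaks, had 1338, 1513 and 1308 bp at 0 h, 4 h and 12 h. Cenpa, the centromeric form of H3, had 1007, 1040 and 1047 bp. H2aj had 290, 859 and 833 bp and Macroh2a1 682, 1063 and 1016 bp, both with more at 4 h and 12 h than at 0 h.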

How the data were processed

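H3K4me3 ChIP-seq of granulosa cells was analysed in 3 libraries, 1 per time. The authors deposited 1 peak list per library, with no counts or scores, and other values alone: the chromosome, start, end and name of each peak, in bp positions. The submitters' processing notes name the build mm10 and the tools MACS2 2.0.9, Bowtie2 2.2.3 and CASAVA 1.8. The peak threshold, the use of input and the handling of reads with several matches are not stated in any source used here.

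Peaks of the autosomes, X and Y were joined to RefSeq gene spans of GRCm38.p6 (Python 3.11.15, pandas 2.3.3, NumPy 2.4.6, SciPy 1.17.1, matplotlib 3.10.9). Covered bp is the union of peaks in the gene and 1 kb on each side. Annotated starts and promoters were found for 72 of 77 members, all but H2bc21, H4c14, H3c7, H2bc4 and H3c1. Clusters join members within 1 Mb, and groups within them split at gaps over 100 kb.

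Members and lists were chosen with earlier results of these data known. Members named by rule were single genes, those with no peak, the 5 with the highest percent of window, the printed pairs and, of 27 with a gain, loss or call, the 20 with the largest difference. The other members are named to account for all 77, and the members of other lists were picked as examples after their values were seen. The calling code was tested on simulated data. Alternatives changed the window, the peaks used, the threshold and the members. Protein sequences were not used here.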

Additional observations from a re-analysis of the deposited data

How the results depend on the processing

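With 1 library per time, no value has a replicate error, and leaving out a replicate was not possible. No paired analysis was possible because each time has a single library and no result comes from a test. Of the alternative values for counts and shares, 146 stayed within 1.5 times the main count or within its interval and 49 did not. For the 49, the cause was not tested, except that merged windows hold fewer units. Counting overlapping windows once gave 37, 36 and 32 with a peak at 0 h, 4 h and 12 h. Losses were then 2 at 4 h over 0 h, 5 at 12 h over 4 h and 5 at 12 h over 0 h, gains 1 and 1 in the first 2 of these comparisons, and narrower windows 5 at 12 h over 4 h and 3 at 12 h over 0 h. Losses under the other alternatives stayed within 1.5 times the main counts.

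Gains at 4 h over 0 h (4) were 2 with no window, 1 with 2.5 kb and 2 with narrow peaks left out. Gains at 12 h over 4 h (3) were 1 with narrow peaks left out, and gains at 12 h over 0 h (0) were 2 with 500 bp. Broader genes at 4 h over 0 h (1) were 3 with no window, 2 with narrow peaks left out, 2 with equal numbers of the widest peaks, 6 with peaks within 1 kb joined, 0 among clustered members, 3 at a threshold of 1.5-fold and 0 within 1 kb of the start. Broader genes at 12 h over 4 h (0) were 3 with no window, 1 with 500 bp, 1 with narrow peaks left out, 1 with joined peaks and 2 at 1.5-fold. Broader genes at 12 h over 0 h (0) were 2 with no window, 1 with 2.5 kb, 2 with narrow peaks left out, 2 with equal numbers, 1 with joined peaks and 1 at 1.5-fold.

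Narrower genes at 4 h over 0 h (3) were 5 with 2.5 kb, 0 without centring, 7 at 1.5-fold and 0 within 1 kb of the start. Narrower genes at 12 h over 4 h (8) were 3 with no window and 3 with narrow peaks left out, and those at 12 h over 0 h (5) were 14 at 1.5-fold. Reversed values were those of H2az1 within 1 kb of the start (-0.042 at 4 h over 0 h and 0.10 at 12 h over 4 h) and of H4bc24 with no window (0.082 at 12 h over 4 h). With reciprocal overlap of 50%, shared peaks were 57.9% and 44.7% of 0 h peaks at 4 h and 12 h, 56.4% and 47.4% of 4 h peaks at 0 h and 12 h, and 53.1% and 57.8% of 12 h peaks at 0 h and 4 h. Among genes no longer than the longest clustered member (37455 bp), 46.6%, 47.9% and 46.4% had a peak at 0 h, 4 h and 12 h. The window of 1 kb around the start and the members by current symbol alone were chosen after seeing the data.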

Other observations

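Features that are no histone protein genes lay inside the clusters. Hfe, an iron regulator gene in the second chromosome 13 cluster, had 620, 350 and 336 covered bp at 0 h, 4 h and 12 h. The pseudogene H2ac5-ps in that cluster had 307, 456 and 148 bp. On chromosome 11 the pseudogene H2bu1-ps had 770, 398 and 566 bp, from peaks in the windows of H2aw and Trim17. The pseudogene H2ac14 and the lncRNA Gm11274 of the first chromosome 13 cluster had no peak at any time.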
